A study of Mus musculus with 4 samples.

Results

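Cells sorted from tumours 7 days after cisplatin were compared with cells sorted from tumours of PBS-treated mice, across all genes. The cells were all barcodes of the 2 libraries with at least 500 detected genes and at most 10% of UMIs (unique molecular identifiers, counted RNA molecules) from mitochondrial genes. This rule kept 2771 of 2981 barcodes (93.0%) of the day 7 library and 8075 of 10063 (80.2%) of the PBS library. Together they are 10846 of the 23294 cells that the same rule keeps in the 4 libraries of the series, which hold 30053 barcodes and include cisplatin libraries of days 1 and 3. The rule used no expression value other than the mitochondrial share and the gene count.

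Both libraries came from wild-type mice of strain C57/bl6 that carried TC-1 tumours, grown from a transplanted mouse lung epithelial tumour line after injection of 300000 cells under the skin. The day 7 mice received 1 dose of cisplatin (6 mg/kg) into the peritoneum when the tumour measured 40 mm², and their tumours were collected 7 days later. The PBS mice received PBS at the same tumour size. No collection day is labelled for the PBS library, and its source label says that it had no treatment although PBS is the labelled treatment. The number of mice behind each library is not stated. In both groups cells were sorted as innate lymphoid cells (ILCs), defined as CD45+, lin-, CD90+ and CD127+, and 15000 cells were loaded per library for 10x 3′ version 3 chemistry. Each group is 1 library, so there is no replicate and no test. Treatment, tumour age, sort and library preparation cannot be told apart. Intervals in brackets are exact 95% counting intervals and cover counting error only.

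Cisplatin is a platinum drug that crosslinks DNA, which can stall replication and activate p53. ILCs are tissue lymphocytes without antigen receptors; group 1 ILCs, which include natural killer (NK) cells, kill target cells with granzymes and perforin and secrete interferon-gamma. Tumours also hold many macrophages, phagocytes that clear dead cells and present antigen, beside T cells, mast cells and fibroblasts.

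The day 7 library was the smaller of the pair. Its kept cells held 15945840 UMIs, with a median of 5120 UMIs and 1839 genes per cell. The kept PBS cells held 57064112 UMIs, with a median of 6343 UMIs and 2166 genes. Barcodes above the mitochondrial limit made up 4.53% of the day 7 library and 18.9% of the PBS library. The 2 libraries shared 8 barcode sequences, 4 of them among kept cells. Levels are given as CPM, a gene's UMIs per 1000000 UMIs of all kept cells of a library. A log2 ratio sets the day 7 CPM over the PBS CPM, so 1 stands for 2-fold.

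Most sorted cells fell outside the labelled cell type. The cells of both libraries were clustered together into 18 clusters, named only from marker lists. Macrophage-like clusters (0, 1, 3, 5, 8 and 10) made up 55.4% of day 7 cells [53.6, 57.3] and 54.7% of PBS cells [53.6, 55.8]. Group 1 ILC-like cells (cluster 12) were 129 cells or 4.66% on day 7 [3.90, 5.51] and 122 cells or 1.51% after PBS [1.26, 1.80]. Neither ILC2 nor ILC3 markers named a cluster. Alpha-beta T-like cells (clusters 11 and 13) made up 7.58% [6.62, 8.63] and 4.71% [4.25, 5.19], osteoclast-like cells (6 and 9) 3.79% [3.11, 4.57] and 11.7% [11.0, 12.4], and fibroblast-like cells (15) 0.830% [0.527, 1.24] and 1.65% [1.38, 1.95] of day 7 and PBS cells. Mast-like cells (17) were 0 of 2771 on day 7, for which a limit of 3 counts allows a share of up to 0.108%, and 26 cells or 0.322% after PBS. A sort gate and its yield can set all these shares. Among the leading genes of cluster 11 are Trdc and Tcrg-C1, genes of gamma-delta T cells. The alpha-beta T-like class may thus hold gamma-delta T cells too.

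The unnamed clusters were split unevenly between the libraries. Cluster 7, led by Cfb, Cd74 and the MHC class II gene H2-Aa, held 22.4% of day 7 cells and 0.0495% of PBS cells. Cluster 2, led by Ccl8, held 0.722% and 14.3%, and cluster 4, led by Cxcl3 and Arg1, held 0.361% and 9.59%. Cluster 14, led by Fst, Dlk1 and Tm4sf1, held 4.15% and 1.10%, and cluster 16, led by Ccr7, held 0.0722% and 0.334%. On average 85.3% to 92.0% of the cells of clusters 2, 4 and 7 held a given macrophage marker. They were kept out of the macrophage-like class by naming limits set after the clusters had been seen. Within that class, cluster 1 held 1378 cells, all of day 7, while cluster 0 held 22 day 7 cells and 2088 PBS cells. With 1 library a group, such clusters may be a library and not a cell type.

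Of 12072 genes with at least 50 UMIs over both libraries, 1325 (11.0%) were at least 2-fold higher on day 7 and 444 (3.68%) at least 2-fold lower. The counting interval lay wholly past 2-fold for 860 and 151 of them. The median log2 ratio over all genes was -0.01. Over whole libraries, fewer cells of a type and less RNA per cell cannot be told apart, and the shares above moved beside these ratios. Where a gene's UMIs lay and its level within a class are therefore given beside the ratio over all cells.

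**Figure D1:**
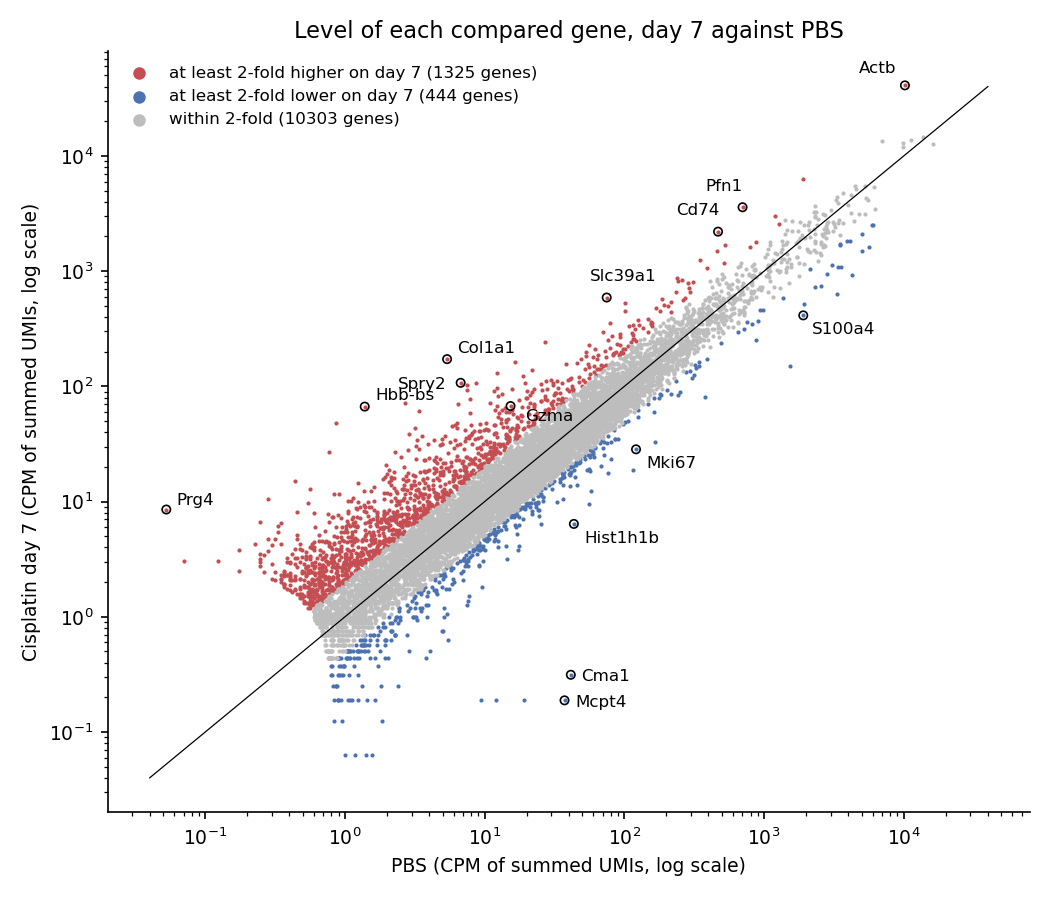
Each point is 1 of the 12072 compared genes, with its PBS level on the x axis and its cisplatin day 7 level on the y axis, both as CPM of summed UMIs on a log scale; genes with 0 UMIs in a library are drawn at the floor of 3 UMIs. Red points are the 1325 genes at least 2-fold higher on day 7 and blue points the 444 at least 2-fold lower; Prg4, Hbb-bs and Col1a1 stand far above the line of equal level, and Mcpt4 and Cma1 far below it.

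Haemoglobin and mast cell protease genes stood near the ends of the ranking by fold. Since they are among the genes farthest up and down, the 250 bases before the RefSeq transcription start (GRCm38.p6) of 4 of them are shown. Capitals mark the GATA motif, searched on both strands as AGATAA and TGATAA. The factors that bind it are known regulators of erythroid and mast cell genes. Of 9 haemoglobin and mast cell genes sought, 7 had such a window, and 5 of the 7 held the motif. The 5 include Hba-a1 and Hba-a2, whose windows are nearly the same sequence and are not independent. The 4 windows shown were all taken from these 5. The windows of Hbb-bt and Cma1, not shown, lacked the motif. Of all 32817 windows of this length, 5450 (16.6%) hold it, and a match is a description of letters, not a site in use.
Hba-a1: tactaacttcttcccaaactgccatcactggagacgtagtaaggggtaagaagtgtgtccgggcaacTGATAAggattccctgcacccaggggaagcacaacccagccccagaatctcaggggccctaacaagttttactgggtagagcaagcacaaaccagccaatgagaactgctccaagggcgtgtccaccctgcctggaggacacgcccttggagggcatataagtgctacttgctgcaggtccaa
Hbb-bs: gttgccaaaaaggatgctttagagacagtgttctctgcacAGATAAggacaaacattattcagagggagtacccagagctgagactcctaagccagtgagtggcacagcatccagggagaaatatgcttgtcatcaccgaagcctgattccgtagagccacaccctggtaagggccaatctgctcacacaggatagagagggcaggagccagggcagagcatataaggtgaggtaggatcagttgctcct
Mcpt4: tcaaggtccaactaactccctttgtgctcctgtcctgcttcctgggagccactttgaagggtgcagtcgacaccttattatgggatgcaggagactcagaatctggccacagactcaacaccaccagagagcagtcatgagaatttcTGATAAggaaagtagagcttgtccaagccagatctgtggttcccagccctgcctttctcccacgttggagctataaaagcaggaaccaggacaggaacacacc
Cpa3: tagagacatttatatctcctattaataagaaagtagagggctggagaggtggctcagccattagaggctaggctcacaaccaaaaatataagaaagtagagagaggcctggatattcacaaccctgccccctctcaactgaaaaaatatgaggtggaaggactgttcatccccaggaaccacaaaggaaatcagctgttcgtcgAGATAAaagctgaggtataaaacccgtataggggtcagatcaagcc

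These windows lie at chr11:32283422-32283671 (plus strand), chr7:103827929-103828178 (minus strand), chr14:56062311-56062560 (minus strand) and chr3:20242182-20242431 (minus strand), in the order shown. The motif starts 183, 210, 103 and 46 bases before the start of Hba-a1, Hbb-bs, Mcpt4 and Cpa3.

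Haemoglobin RNA, the product of red blood cell precursors, was high in a few day 7 cells. Hba-a1 (ENSMUSG00000069919; mm10 chromosome 11, 32283511 to 32284465, plus strand), an alpha chain, had 770 UMIs or 48.3 CPM on day 7 and 49 UMIs or 0.859 CPM after PBS, a log2 ratio of 5.81 [5.40, 6.26]. On day 7, 10 cells held 96.2% of its UMIs, 39 cells held any, and 96.1% of the UMIs lay in cluster 7. The 49 PBS UMIs lay in 49 cells, 57.1% of them macrophage-like. The beta chain Hbb-bs was at 66.7 CPM in day 7 cells and 1.38 CPM in PBS cells, with 95.2% of day 7 UMIs in cluster 7. Hba-a2 and Hbb-bt, near-identical copies whose reads cannot be split with certainty, had log2 ratios of 5.12 and 4.22. Of the 12 erythroid markers only these 4 passed 50 UMIs; Epb42 and Car1 had 0 UMIs in both libraries, and Alas2, the erythroid enzyme of haem synthesis, had 10 UMIs on day 7 and 0 after PBS.

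Mast cell genes were absent or nearly absent on day 7. Mcpt4 (ENSMUSG00000061068; mm10 chromosome 14, 56059629 to 56062313, minus strand), a chymase stored in mast cell granules, had 0 UMIs on day 7 and 2128 UMIs or 37.3 CPM after PBS. Against a floor of 3 UMIs in the day 7 library it was at least 198-fold lower. Mcpt2, Cpa3 (carboxypeptidase A3) and Tpsb2 (a tryptase) also had 0 UMIs on day 7, beside 1091, 684 and 536 UMIs after PBS, and were at least 102-fold, 63.7-fold and 49.9-fold lower. Cma1, another chymase, had 5 UMIs on day 7 and 2360 after PBS, a log2 ratio of -7.04 [-8.67, -5.82]. Of the 10 mast markers compared, 7 were at least 2-fold lower and 1, Gata2, was at least 2-fold higher, beside 3.68% and 11.0% of all genes. The 7 lower ones reached 50 UMIs through their PBS counts alone, so the filter fixed their side and their number is no support. In the PBS library 88.9% of the Mcpt4 UMIs lay in the 26 mast-like cells, and the other cisplatin libraries held 97.9 CPM (day 1) and 44.4 CPM (day 3).

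Fibroblast genes were higher on day 7. Fibroblast-like cells were a smaller share of that library than of the PBS library, but cluster 14, which holds 13 of the 20 fibroblast markers at 3-fold over the other cells, was a larger one, with 9.24% of day 7 UMIs and 2.37% of PBS UMIs. All 20 fibroblast markers were at least 2-fold higher, beside 11.0% of all genes, with a median log2 ratio of 2.48. Their summed level was 874 CPM on day 7 and 112 CPM after PBS. Col1a1, the alpha 1 chain of type I collagen, had 2748 UMIs or 172 CPM on day 7 and 307 UMIs or 5.38 CPM after PBS, a log2 ratio of 5.00 [4.83, 5.18]. The fibroblast-like class had 23 cells on day 7 and 133 after PBS, and these 23 cells held 92.2% of the day 7 Col1a1 UMIs, with 74.0% in 10 cells. Within the class Col1a1 was at 9549 CPM in day 7 cells and 216 CPM in PBS cells. Macrophage RNA differed inside it as well. C1qa, C1qb, C1qc, Apoe and Lyz2 made up 1.21% of its UMIs on day 7 and 4.28% after PBS. In the macrophage-like class they made up 4.82% and 3.89%. On average 89.5% of the cells of cluster 15 held a given macrophage marker. The day 7 and PBS cells of the fibroblast-like class may therefore not be alike. The median cell of this class held 10712 and 6104 UMIs. The part of macrophage RNA in the fibroblast ratios was not tested.

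Genes of joint lining and tendon also lay in fibroblast-like cells on day 7. Prg4 (ENSMUSG00000006014; mm10 chromosome 1, 150449412 to 150466165, minus strand), which encodes the joint lubricant lubricin, had 136 UMIs or 8.53 CPM on day 7 and 3 UMIs or 0.0526 CPM after PBS. Its ratio of 162 [54.3, 796] was the highest by the bound nearer to 1, but 10 cells held 99.3% of its day 7 UMIs, and 93.4% lay in fibroblast-like cells. Thbs4, a tendon matrix protein, and Sfrp2, a secreted Wnt modulator, had log2 ratios of 5.24 and 5.45. Of 16 genes of this list 6 passed 50 UMIs and 5 of them were at least 2-fold higher, beside 11.0% of all genes. None of these 5 had 50 UMIs in the PBS library alone. They passed the filter with their day 7 counts, so their number is no support. The cartilage genes Col2a1 and Acan had 0 UMIs in both libraries. Sod3, an extracellular superoxide dismutase, Wisp2, a matricellular protein, and Cxcl12, a chemokine of stromal cells, had log2 ratios of 5.11, 4.75 and 4.51, with 83.8%, 80.0% and 87.7% of their day 7 UMIs in fibroblast-like cells.

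Cyr61, a matricellular protein induced by growth factors, came from cluster 14 in both libraries. It was at 60.6 CPM in day 7 cells and 3.38 CPM in PBS cells, a log2 ratio of 4.16 [3.94, 4.39], with 92.7% of day 7 and 88.6% of PBS UMIs in that cluster. Within cluster 14 it was at 608 CPM in day 7 cells and 127 CPM in PBS cells. Tm4sf1, of the epithelial and tumour list, had 91.8% and 85.3% of its UMIs there, and a log2 ratio of 1.77 over all cells but of -0.09 within the cluster. Il1rl1, the IL-33 receptor, and Areg, an EGF-family growth factor, are ILC2 markers, and 78.8% and 73.9% of their day 7 UMIs also lay in cluster 14. Over all cells their log2 ratios were 1.71 and 1.15. The ILC2 list had 5 of 9 compared members at least 2-fold higher and 1 lower, beside 11.0% and 3.68% of all genes. No cluster was ILC2-like. The other higher members were Gata3, Klrg1 and Bcl11b, at 1.06, 1.13 and 1.10. Klrg1 is a leading gene of cluster 13, which is alpha-beta T-like. Il13, the effector cytokine of the list, had 0 UMIs on day 7 and 19 after PBS.

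**Figure D2:**
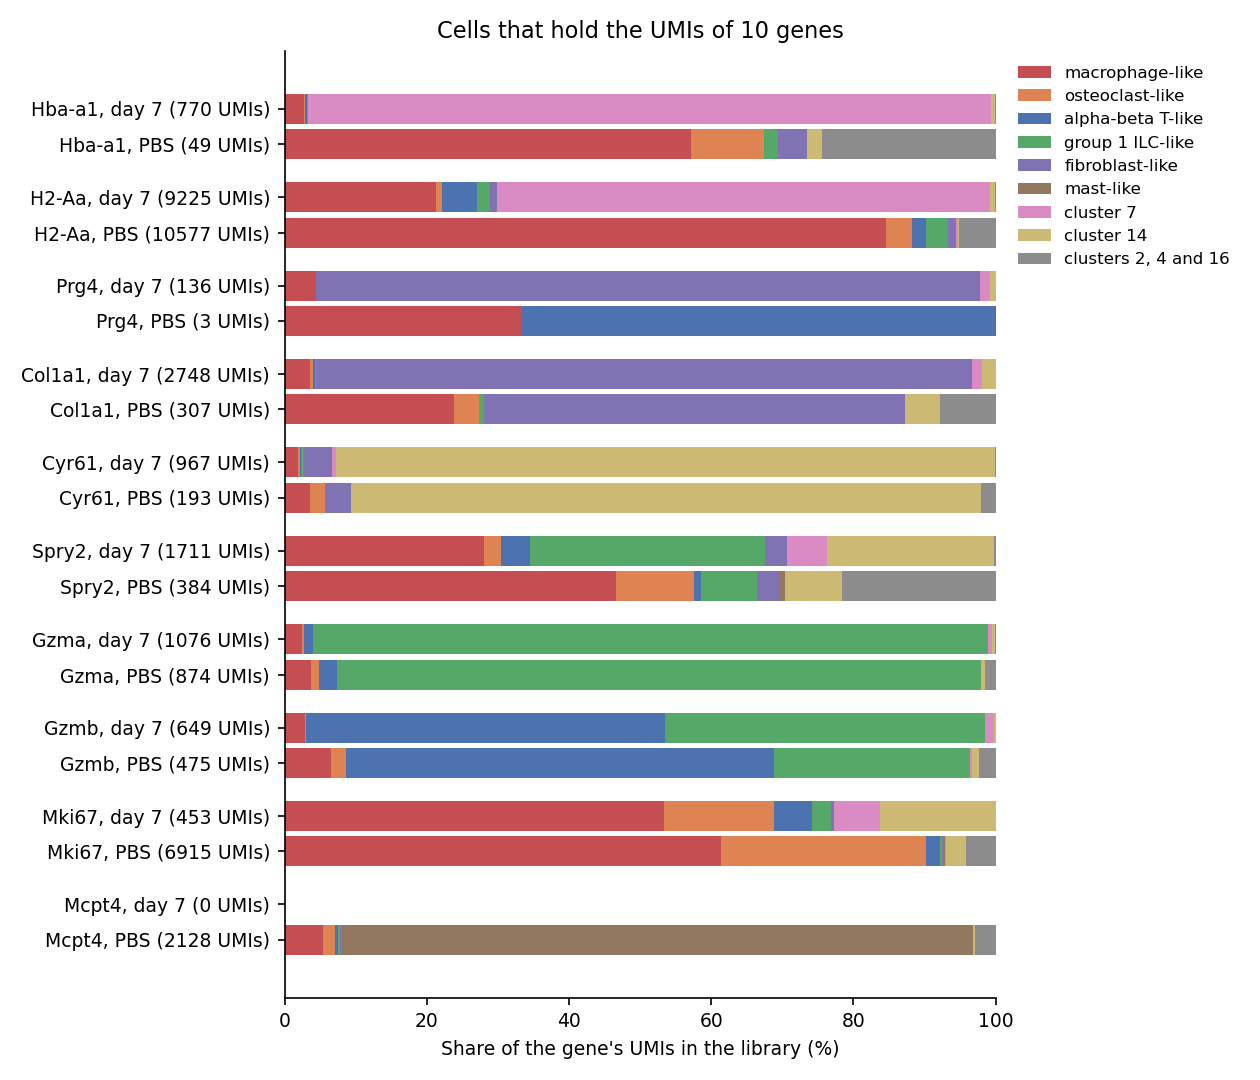
Each pair of bars splits the UMIs of 1 gene by the cells that hold them (x axis, percent of the gene's UMIs in the library), day 7 above PBS, with the UMI total beside the name. Day 7 Hba-a1 UMIs lie in cluster 7, day 7 Prg4 and Col1a1 UMIs in fibroblast-like cells, Cyr61 in cluster 14 and Gzma in group 1 ILC-like cells in both libraries, while Spry2 is spread over several classes and Mcpt4 has 0 UMIs on day 7.

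Other genes differed in the share of cells in which they were detected. Each cell was thinned at random to 2000 UMIs to remove the gap in depth, which left out 391 day 7 cells and 505 PBS cells, and the share of cells with at least 1 UMI was compared. Of the 12072 genes, 195 (1.62%) were detected in a share of cells at least 10 percentage points higher on day 7 and 178 (1.47%) in a share at least 10 points lower. Slc39a1 (ENSMUSG00000052310; mm10 chromosome 3, 90248172 to 90253612, plus strand), a zinc importer, was detected in 61.3% of day 7 cells [59.3, 63.2] and 14.8% of PBS cells [14, 15.6], or 77.7% and 37.6% without thinning. Its level was 590 CPM on day 7 and 74.7 CPM after PBS, a ratio of 7.90 [7.62, 8.19]. In the other cisplatin libraries it stood at 79.8 CPM (day 1) and 57.1 CPM (day 3).

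The genes gained in detection had varied roles. Pfn1, profilin, which feeds actin monomers to growing filaments, was found in 99.1% of thinned day 7 cells and 72.1% of PBS cells, at 3587 and 702 CPM. Gnb1, a G protein beta subunit, was found in 77.9% and 37.9%, and Jund, an AP-1 transcription factor, in 78.6% and 44.8%. Cebpb, a myeloid transcription factor, was found in 82.3% and 52.2%, Kdm6b, a histone H3K27 demethylase, in 45.5% and 15%, and Cbx3, a heterochromatin protein, in 49.0% and 16.5% of day 7 and PBS cells. Of the 24 actin cytoskeleton genes, 4 were at least 2-fold higher and 1 lower, with a median log2 ratio of -0.30, close to the 11.0% and 3.68% of all genes. Actb reached 40982 CPM on day 7 against 10195 CPM after PBS, and Vim, the intermediate filament vimentin, was at 1684 and 3502 CPM.

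The genes lost in detection included calcium-binding, lipid-binding and protein synthesis genes. S100a4, a calcium-binding protein, was found in 41.7% of thinned day 7 cells [39.7, 43.7] and 81.3% of PBS cells [80.4, 82.2], at 413 and 1908 CPM, 4.62-fold lower on day 7. In the day 1 and day 3 libraries it stood at 1531 and 1446 CPM. Rack1, a scaffold on the small ribosomal subunit, was found in 59.7% and 96.1%, Eef1b2, a translation elongation factor, in 49.2% and 79.9%, and Fabp5, a fatty acid-binding protein, in 27.1% and 56.4% of day 7 and PBS cells. No cell class in these libraries is known to lack genes as widely expressed as Pfn1 or Rack1, so no background share was set beside them.

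**Figure D3:**
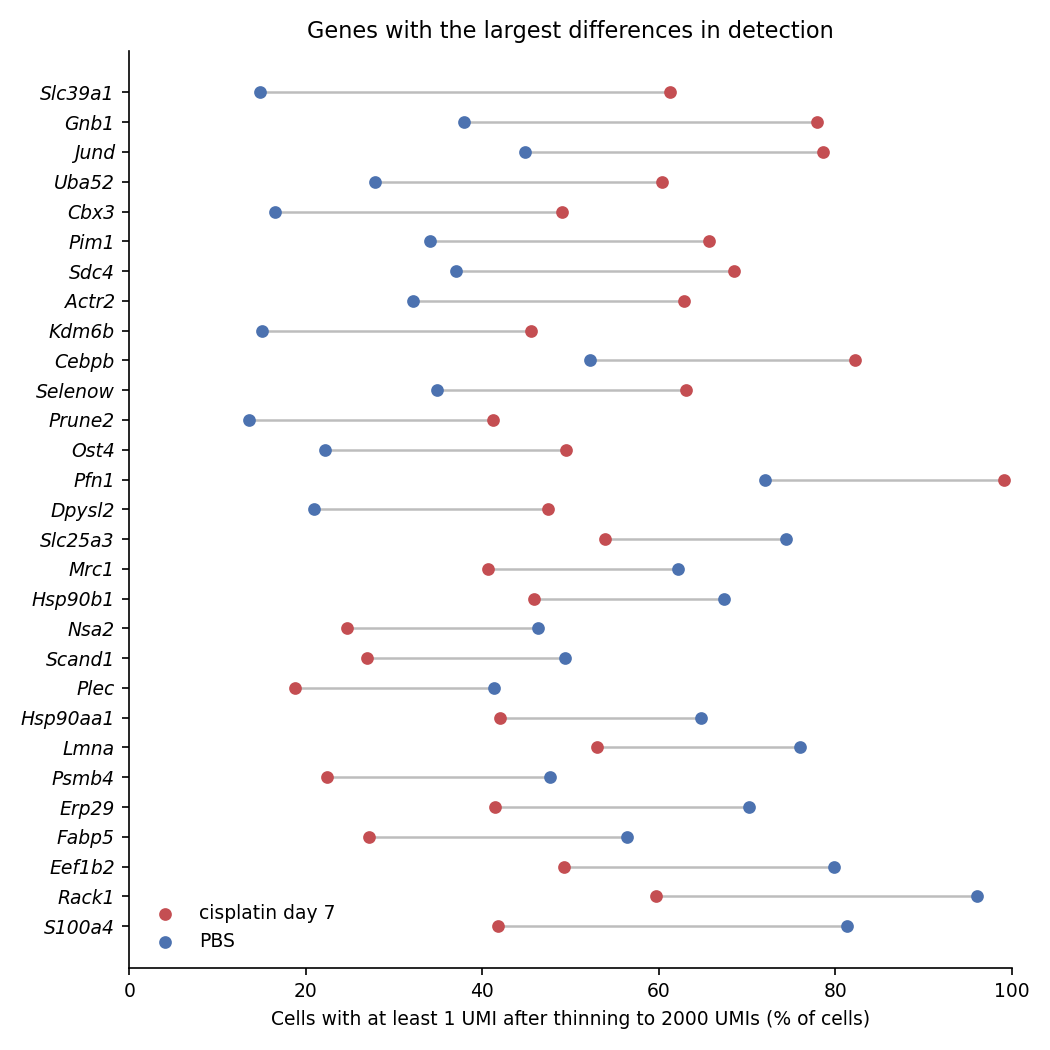
For the 15 genes with the largest gain and 14 of the 15 with the largest loss, the x axis gives the percent of cells with at least 1 UMI after thinning to 2000 UMIs, with red points for cisplatin day 7 and blue points for PBS. Slc39a1 has the widest gain, 61.3% against 14.8%, and S100a4 the widest loss, 41.7% against 81.3%.

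Many of these genes stood on the same side in different cell classes. In 4 classes (macrophage-like, osteoclast-like, alpha-beta T-like and group 1 ILC-like), 3125 genes were compared in every one. Of these, 73 were at least 2-fold higher on day 7 in all 4 and 36 at least 2-fold lower in all 4. Among the same 3125 genes, 123 were higher and 86 lower in macrophage-like cells. The 4 classes come from the same 2 libraries and are not independent comparisons. Pfn1 had log2 ratios of 2.45, 2.46, 2.49 and 2.41 in the 4 classes in that order, and Slc39a1 of 3.1, 2.82, 2.64 and 2.61. Rack1 had -1.84, -1.54, -1.94 and -2.02, and S100a4 had -1.82, -1.44, -2.17 and -2.64. B2m, the light chain of MHC class I, had 1.47, 1.64, 1.78 and 1.63. Macrophage RNA was present in the T and ILC classes of both libraries: C1qa, C1qb, C1qc, Apoe and Lyz2 made up 2.93% of alpha-beta T-like UMIs on day 7 and 2.69% after PBS, and 2.51% and 2.67% of group 1 ILC-like UMIs. Its part in the shared ratios was not tested.

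Spry2 (ENSMUSG00000022114; mm10 chromosome 14, 105891947 to 105896819, minus strand), a feedback inhibitor of receptor tyrosine kinase signals, was the gene with the highest median over the 4 classes. It was at 107 CPM in day 7 cells and 6.73 CPM in PBS cells over all cells, and at 9.98 and 8.23 CPM on days 1 and 3. Its log2 ratio was 3.22 in macrophage-like, 3.31 in osteoclast-like, 5.09 in alpha-beta T-like and 4.26 in group 1 ILC-like cells. Group 1 ILC-like cells held 33.1% of its day 7 UMIs, and the level there was 973 CPM in day 7 and 50.8 CPM in PBS cells. After thinning, it was detected in 12.1% of day 7 cells and 1.35% of PBS cells. Other genes higher in all 4 classes were Rpgrip1, a ciliary protein, with 3.57, 3.1, 3.06 and 3.32, and Kdm6b with 1.87, 1.62, 2.11 and 2.12. Rnaset2a and Rnaset2b, also higher, are near-identical copies and uncertain.

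**Figure D4:**
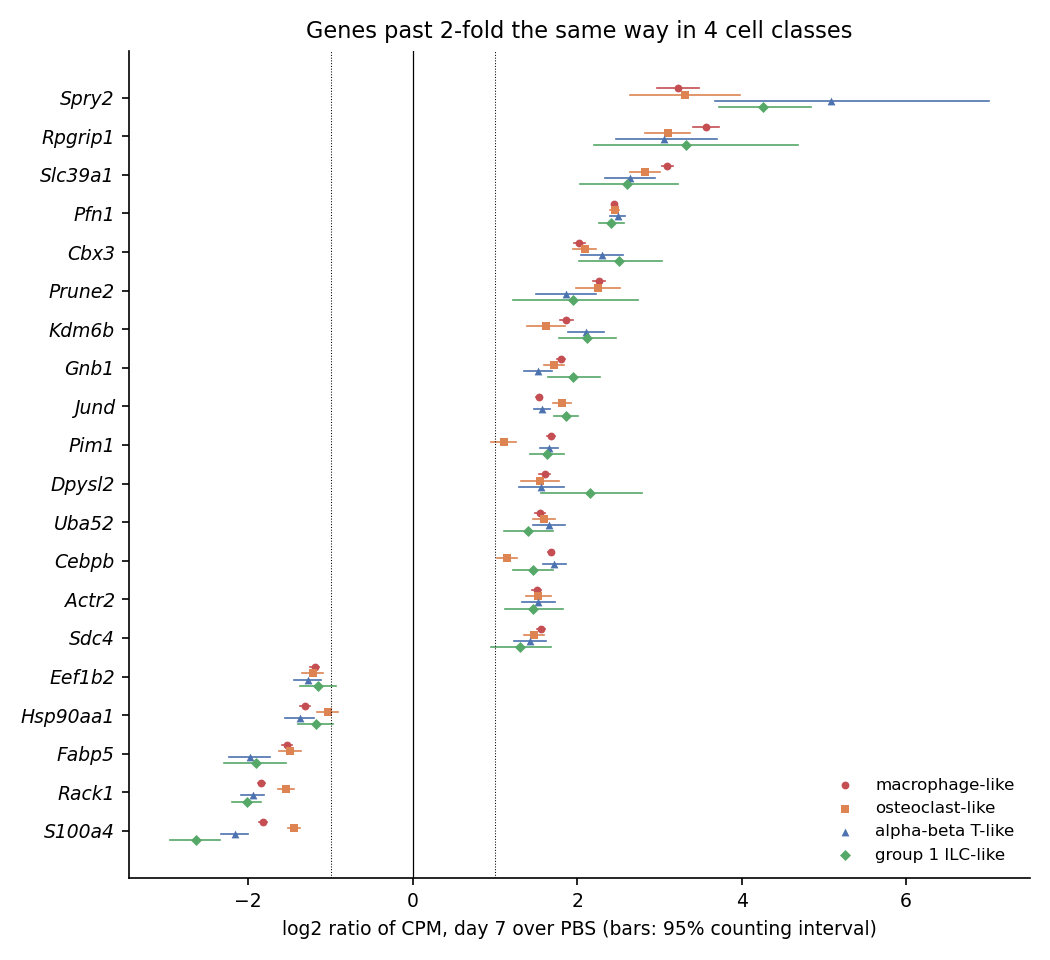
The x axis gives the log2 ratio of CPM, day 7 over PBS, of 20 genes (rows) in 4 cell classes (colours and shapes), with bars for the 95% counting interval and dotted lines at 2-fold. Spry2 to Sdc4 lie above 1 and Eef1b2 to S100a4 below -1 in every class.

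Ribosomal protein genes, which serve 1 complex and usually keep close levels, were spread apart in the day 7 library. For the 79 with at least 10000 PBS UMIs, the log2 ratios on day 7 ran from -2.38 (Rps21) to 1.48 (Rpl13a), with an SD over genes of 0.765. Of them, 4 were at least 2-fold higher and 15 at least 2-fold lower. Set over the same PBS library, the SD was 0.179 on day 1 and 0.207 on day 3, with 0 of 79 past 2-fold in either direction on either day. Rps21, of the small subunit, had 10144 UMIs on day 7 and 188709 after PBS, and its log2 ratio was between -2.50 and -2.06 in each of the 4 classes. Rpl13a and Rpl27, of the large subunit, had 1.48 and 1.37. As a whole the family took 16% of day 7 UMIs and 20.7% of PBS UMIs. Many ribosomal protein genes have processed pseudogenes that can share their reads; Rps12-ps3 and Rpl13a-ps1 were at -2.54 and 2.66, on the side of Rps12 (-2.20) and Rpl13a.

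The transcripts encoded by mitochondria were also spread, though they are cut from shared precursors. The 12 log2 ratios ran from -2.34 (mt-Nd4l) to 0.44 (mt-Nd1) on day 7, with an SD of 0.844 and 7 genes at least 2-fold lower. The SD was 0.227 on day 1 and 0.274 on day 3, with 0 of 12 past 2-fold. mt-Co2 and mt-Co3, subunits of cytochrome c oxidase, were at -1.74 and -1.23, while mt-Cytb was at -0.13. Together these genes took 1.87% of day 7 UMIs and 3.04% of PBS UMIs; the rule for cells caps this share in both libraries. The 27 oxidative phosphorylation genes of the nucleus had a median of -0.17, with 0 past 2-fold in either direction. The labels do not give the day of library preparation or a sequencing run, so no split by batch was possible.

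**Figure D5:**
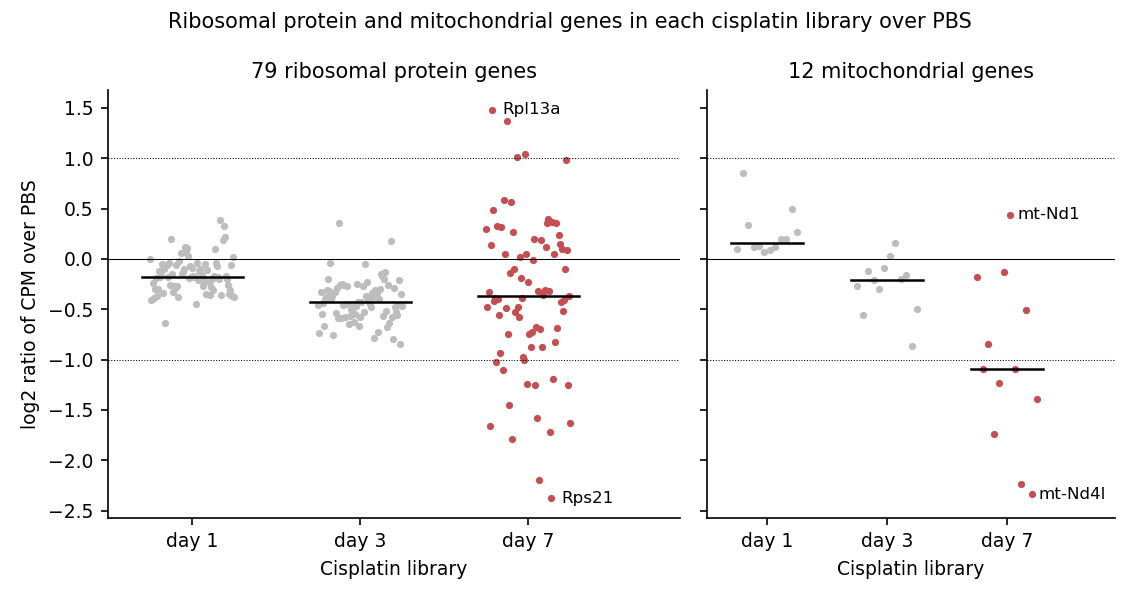
Each point is 1 gene, with the cisplatin library on the x axis, the log2 ratio of its CPM over PBS on the y axis, bars at the median and dotted lines at 2-fold. The 79 ribosomal protein genes (left) and 12 mitochondrial genes (right) lie close together on days 1 and 3 and spread from -2.38 to 1.48 and from -2.34 to 0.44 on day 7; the 3 libraries share the PBS library.

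Within the macrophage-like class, 456 of 10684 compared genes (4.27%) were at least 2-fold higher on day 7 and 575 (5.38%) lower, with a median log2 ratio of -0.14. Cluster 1 held 1378 of the 1536 day 7 cells of the class and clusters 0, 3 and 5 held most of the 4419 PBS cells, so these ratios set different clusters side by side. Of 14 macrophage markers 0 were at least 2-fold higher and 1 lower within the class, with a median of -0.10. C1qc, a chain of complement C1q, had the highest log2 ratio of the 14 over all cells, 0.66. Within the class it was at 4607 CPM in day 7 cells and 2825 CPM in PBS cells. Adap2os had a log2 ratio of 3.88, Gstp1, a glutathione transferase that can detoxify electrophiles, of 3.40, and Slc24a5, an ion exchanger, of 3.04. Of 386 genes higher in the class after leaving out gene models, ribosomal, mitochondrial and receptor genes, 181 were compared in alpha-beta T-like and osteoclast-like cells. Of these, 117 were at least 2-fold higher in both, and 0 lay within 0.5 log2 of no difference in both. Of 521 genes lower in the class, 163 were compared in both others, of which 37 were at least 2-fold lower in both and 19 lay within 0.5 log2 in both. The shares of all genes past 2-fold or within 0.5 log2 in both are not given here, so these counts have no background.

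Genes of division were lower in macrophage-like cells. Of 33 G2M genes 25 were at least 2-fold lower within the class and 0 higher, with a median of -1.28. Of all genes compared there, 5.38% were lower and 4.27% higher. Over all cells 13 G2M genes were lower and 0 higher, with a median of -0.83, beside 3.68% and 11.0% of all genes. Mki67, found in cycling nuclei, was at 28.2 CPM in day 7 cells and 142 CPM in PBS cells in the class, and at 28.4 and 121 CPM over all cells. Cluster 3, whose leading genes are mitotic, held 13 day 7 cells and 846 PBS cells. In alpha-beta T-like cells 2 of 17 compared G2M genes were lower and 0 higher, with a median of -0.04. Of all genes compared in these cells, 4.12% were lower and 5.97% higher. Of 27 S phase genes, 7 were lower and 0 higher in the macrophage-like class. Over all cells 2 were lower and 0 higher (median -0.14), not far from the 3.68% of all genes that were lower. In alpha-beta T-like cells 3 of 16 were higher and 0 lower. Of 18 histone genes, 8 were lower over all cells and 1 higher, beside 3.68% and 11.0% of all genes. Hist1h1b, a linker histone, was at 6.40 and 43.5 CPM, and the replication-dependent histone genes are near-identical copies and uncertain. Of 24 genes that repair crosslinks, 6 were lower over all cells and 0 higher, beside the same shares. The lower ones include Brca1 and Brca2 (both -1.09) and Polh, a polymerase that bypasses lesions (-1.77).

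Targets of p53 did not stand together. Of 29 compared, 6 (against 11.0% of all genes) were at least 2-fold higher over all cells and 0 lower, with a median of 0.05; within the macrophage-like class 1 of 28 was higher and 4 lower, beside 4.27% and 5.38% of all genes compared there. Cdkn1a, which arrests the cell cycle, was at 518 CPM in day 7 cells and 290 CPM in PBS cells, a log2 ratio of 0.84. Mdm2, which degrades p53, was at -0.55 over all cells and at -0.69 in the macrophage-like class. Pmaip1, a killer protein of the BCL2 family, was at 1.69, and Phlda3 at 1.28.

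Of genes that handle platinum and metals, 4 of 8 compared were higher over all cells and 0 lower, beside 11.0% and 3.68% of all genes. Gstp1 was at 43.6 CPM in day 7 cells and 3.15 CPM in PBS cells, a log2 ratio of 3.79 [3.55, 4.04], and at 6.17 and 4.56 CPM on days 1 and 3. Lrrc8a, a volume-regulated anion channel subunit through which cisplatin can enter cells, had 2.18, with 2.15, 2.07, 2.07 and 2.18 in macrophage-like, osteoclast-like, alpha-beta T-like and group 1 ILC-like cells. The copper importer Slc31a1 and the metallothionein Mt1 were both at -0.07. Of 24 antioxidant genes under the factor NRF2, 4 were higher and 0 lower, near the 11.0% and 3.68% of all genes. Of 16 heat shock genes, 1 was higher and 4 lower, beside the same shares of all genes. Hspb1 and Hsph1 were at -1.74 and -1.37. Of 20 BCL2-family and related survival genes, 4 were higher and 1 lower, beside the same shares of all genes: Bcl2a1d, Bcl2a1a and Bcl2a1b, anti-apoptotic copies that can share reads, at 1.99, 1.87 and 1.03, Pmaip1, and Mcl1, an anti-apoptotic gene, at -1.01.

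MHC class II genes, which present antigen to CD4 T cells, were higher over the day 7 library. Over all cells 5 of 9 were at least 2-fold higher and 0 lower, with a median of 1.08, beside 11.0% and 3.68% of all genes. Cd74, their invariant chain, was at 2202 CPM in day 7 cells and 468 CPM in PBS cells, and at 1555 and 3775 CPM on days 1 and 3. In the macrophage-like class 1 was lower and 0 passed 2-fold upward, beside 5.38% and 4.27% of all genes compared there. The median was 0.05, and Cd74 was at 878 and 725 CPM. Cluster 7 held 68.6% of day 7 Cd74 UMIs and 69.4% of day 7 H2-Aa UMIs, while 84.6% of PBS H2-Aa UMIs lay in macrophage-like cells. MHC class II genes lead both cluster 7 (621 day 7 and 4 PBS cells), which was kept out of that class, and cluster 8 (37 day 7 and 439 PBS cells), which was kept in it, so the values within the class depend on this split and do not show whether macrophages differed. Over all cells, 6 of 15 MHC class I genes were higher and 0 lower, beside 11.0% and 3.68% of all genes. B2m was at 1.72 and H2-D1 at 1.34, while H2-K1 was at -0.48.

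Interferon genes stood mostly above 0 and chemokines on both sides. Of 41 genes induced by type I interferon, 14 were higher and 0 lower over all cells, beside 11.0% and 3.68% of all genes, with a median of 0.38. Within the macrophage-like class 4 were higher and 1 lower, beside 4.27% and 5.38% of all genes compared there. Ifit3b and Ifit1bl1, antiviral proteins, were both at 2.03. Of 23 chemokines 8 were higher and 3 lower over all cells, beside 11.0% and 3.68% of all genes. Ccl5 was at 2.37 and Xcl1, a product of cytotoxic lymphocytes, at 2.72, while Ccl24 and Cxcl3 were at -1.29 and -1.16. Cxcl9 and Cxcl10, which attract T cells, were at -0.84 and -0.64, and Cxcl9 was at -2.11 within the macrophage-like class. Ccl7, which attracts monocytes, was at 1684 CPM in day 7 cells and 525 CPM in PBS cells. Ly6c2, a marker of inflammatory monocytes, stood at 34.4 and 4.33 CPM, but 43.4% of its day 7 UMIs lay in alpha-beta T-like cells and 32.1% in cluster 7. Of 12 osteoclast programme genes, 5 were lower and 0 higher over all cells, beside 3.68% and 11.0% of all genes. Osteoclast-like cells were 3.79% of all cells on day 7 and 11.7% after PBS. Within osteoclast-like cells 1 of 11 was lower and 0 higher, with a median of 0.17. Among all 8833 genes compared in these cells, 668 were lower and 416 higher. Mmp9, a matrix protease, was at 6.40 CPM in day 7 cells and 25.5 CPM in PBS cells, with 74.5% and 80.4% of its UMIs in osteoclast-like cells.

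Among genes of the sort gate, Thy1 (CD90) was higher and Il7r (CD127) lower on day 7. Ptprc, which encodes CD45, had a log2 ratio of -0.67, Thy1 of 2.18 and Il7r of -0.62 over all cells. Of the Thy1 UMIs of day 7, 39.7% lay in alpha-beta T-like, 26.6% in group 1 ILC-like and 25.8% in fibroblast-like cells. After thinning, Thy1 was detected in 42.3% of day 7 and 27.1% of PBS group 1 ILC-like cells, beside 0.664% and 0.566% of macrophage-like cells, which give the background. Il7r was detected in 3.85% [1.06, 9.56] and 8.33% [3.67, 15.8] of group 1 ILC-like cells and in 0.811% [0.406, 1.45] and 2.62% [2.16, 3.15] of macrophage-like cells. The alpha-beta T-like class had Il7r in 24.2% and 48.0% of its cells, with a log2 ratio of -1.47 [-1.73, -1.23]. Median depths on day 7 and after PBS were 3444 and 3088.5 UMIs in group 1 ILC-like, 3257.5 and 3224.5 in alpha-beta T-like and 5354.5 and 6281 in macrophage-like cells.

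Genes of group 1 ILCs and NK cells were higher over the day 7 library, in which these cells were 4.66% of all, against 1.51% of PBS cells. Of 15 group 1 ILC markers 14 were at least 2-fold higher and 0 lower over all cells, with a median of 2.44. Among 22 NK receptor genes 18 were higher and 0 lower. Beside both counts stand 11.0% and 3.68% of all genes. The lists share genes such as Ncr1 and Klra8, so their counts are not independent. Within group 1 ILC-like cells, 235 of 3235 compared genes (7.26%) were at least 2-fold higher and 148 (4.57%) lower. There, 4 of 15 markers and 9 of 20 NK receptor genes were higher and 0 lower, with medians of 0.92 and 0.85. Klra8, which encodes the activating receptor Ly49H, was at 296 CPM in day 7 cells and 72.9 CPM in PBS cells within the class, detected in 28.8% and 7.29% of its thinned cells. Klra genes are near-identical copies and their values are uncertain. Ncr1, the NK receptor NKp46, was detected in 40.4% and 26% of thinned group 1 ILC-like cells, beside 0.0737% and 0.0236% of macrophage-like cells. Tbx21 and Eomes, transcription factors of these cells, had log2 ratios of 0.75 [0.05, 1.47] and 0.06 [-0.62, 0.73].

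Granzyme B and interferon-gamma stood on opposite sides in group 1 ILC-like cells. Gzmb, a granule protease that starts apoptosis in the target, was at 502 CPM in day 7 cells and 222 CPM in PBS cells, a log2 ratio of 1.18 [0.87, 1.49], detected in 40.4% [30.9, 50.5] and 16.7% [9.84, 25.7] of thinned cells. Prf1, the pore-forming protein, was at 193 and 102 CPM, and Gzma at 1755 and 1342 CPM. Ifng was at 127 CPM in day 7 cells and 408 CPM in PBS cells, a log2 ratio of -1.68 [-2.08, -1.30], detected in 17.3% [10.6, 26] and 31.3% [22.2, 41.5]. In macrophage-like cells Gzmb was detected in 0.295% and 0.165% and Ifng in 0.0737% and 0.165%. Over all cells, Ifng was at 0.08 while Gzmb and Prf1 were at 2.29 and 2.52. C1qa, a macrophage gene, was detected in 68.3% of day 7 and 92.7% of PBS group 1 ILC-like cells after thinning, and its part in these values was not tested.

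In alpha-beta T-like cells, 358 of 5996 compared genes (5.97%) were at least 2-fold higher and 247 (4.12%) lower. Over all cells 11 of 14 alpha-beta T markers were higher and 0 lower, beside 11.0% and 3.68% of all genes. Within the class 4 of 13 were higher and 0 lower. Cd3e, a chain of the T cell receptor complex, was at 340 CPM in day 7 cells and 110 CPM in PBS cells, detected in 43.6% and 18.9% of thinned cells of the class and in 0.221% and 0.0236% of macrophage-like cells. Cd8a, the co-receptor of cytotoxic T cells, had a log2 ratio of 1.86 [1.26, 2.49], and Foxp3, the regulatory T cell factor, of 0.09 [-0.32, 0.49]. Trdc, a gamma-delta T gene, was detected in 8.72% of day 7 and 5.09% of PBS thinned cells of the class. In group 1 ILC-like cells it was detected in 9.62% and 4.17%. Nkg7 and Xcl1, genes of cytotoxic cells chosen here after their values were seen, had 2.87 and 3.06 in the class. Cd74 and H2-Aa were at 2.46 and 2.12 in the class, at 2.23 and 1.64 over all cells, and at 0.28 and -0.39 in the macrophage-like class. The macrophage-like class leaves out cluster 7, which held most of their day 7 UMIs. Of 339 genes higher in alpha-beta T-like cells, with the gene types named above left out, 318 were compared in macrophage-like cells. There, 161 of them were at least 2-fold higher too, beside 4.27% of all genes compared there, and 59 lay within 0.5 log2 of no difference. Of 219 genes lower in the class, 214 were compared in macrophage-like cells. There, 69 of them were lower too, beside 5.38% of all genes, and 47 lay within 0.5 log2. The share of all genes within 0.5 log2 is not given here, so those counts have no background.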

How the data were processed

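The authors deposited raw counts, whole numbers of UMIs for every gene in every barcode, written by software version 3.1.0 per the file headers. Cell Ranger 3.1.0, the build mm10 and Seurat 3.1.2, whose use is unstated, come from the submitters' processing notes. Annotation and strand settings are not given in the sources used here. Gene positions were matched by Ensembl identifier to GENCODE vM21 (31011 of 31053 features). The comparison, gene lists and named genes were chosen with earlier results of these data known.

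Kept counts were summed per library (15945840 UMIs on day 7, 57064112 after PBS) and scaled to CPM. Ratios carry the exact conditional binomial 95% interval, shares the Clopper-Pearson interval, and a library at 0 is set to a floor of 3 counts. Genes needed 50 UMIs. For list medians, genes at 0 are taken at that floor.

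Cells of both libraries were clustered with scanpy 1.11.5 on 2000 variable genes, 30 components and 20 neighbours (Leiden at resolution 1). A name needed 4 of its markers at 3-fold over the other cells (at least 20 UMIs, in 10% of the cluster) and 1 or more among the 10 leading genes, no other list having more there. Macrophage-like clusters had on average at least 65% of cells with a given marker, fewer than 6 markers of another list at 3-fold and no list ahead of their own among the leading genes; these limits were set after seeing the clusters. Scrublet, with an expected rate of 8%, called 0 cells as doublets in both libraries and so did not work; no doublets were removed in the values reported.

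Named genes are the 12 highest and 12 lowest over all cells and in macrophage-like cells by the bound nearer to 1, the 15 largest gains and losses of detection, up to 4 members of each list (all of lists of 12 or fewer), and 26 lineage, gate and effector genes; the first 2 sets leave out gene models, mitochondrial, ribosomal and receptor segment genes. Genes whose ratios were alike in 4 classes, family extremes and further list members were chosen after their values were seen. Of the genes this rule names, 1 is not reported here. Alternatives were other cell, depth and gene filters, doublet removal, TMM (edgeR 4.0.16) and DESeq2 1.42.0 size factors, other thinning, Leiden resolution 0.5 and leaving out clusters. The ratio and detection steps were tested on simulated data.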

Additional observations from a re-analysis of the deposited data

Results flagged for a closer look

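H2-Eb1, an MHC class II beta chain, stood on opposite sides in 2 lymphoid classes under the same comparison. In alpha-beta T-like cells it had 286 UMIs or 296 CPM on day 7 and 195 UMIs or 105 CPM after PBS, a log2 ratio of 1.5 [1.23, 1.77]. In group 1 ILC-like cells it had 82 UMIs or 141 CPM on day 7 and 268 UMIs or 454 CPM after PBS, a log2 ratio of -1.69 [-2.06, -1.33]. It was picked by a search over pairs of cell classes for genes with both counting intervals wholly past 2-fold in opposite directions. No other gene was picked, and the intervals are the rule of the search, not support for the result. With 1 library a group the difference between the classes was not tested. In macrophage-like cells, which leave out cluster 7, H2-Eb1 was at 134 CPM in day 7 cells and 259 CPM in PBS cells. Over all cells its log2 ratio was 1.08, or -0.30 without cluster 7. The macrophage genes C1qa, C1qb, C1qc, Apoe and Lyz2 took 2.93% and 2.69% of alpha-beta T-like UMIs and 2.51% and 2.67% of group 1 ILC-like UMIs on day 7 and after PBS, and their part in this result was not tested.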

How the results depend on the processing

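No paired analysis was possible because each group is 1 library, and leaving out a replicate was not possible for the same reason. Of the gene counts and class shares recomputed under the alternatives, 56 values stayed within their limits and 18 moved. Genes at least 2-fold higher over all cells (1325) became 747 with at least 200 UMIs, 2689 with no filter on UMIs and 860 with the interval wholly past 2-fold; those lower (444) became 751 with no filter and 151 with the interval. In macrophage-like cells the 456 higher genes became 708 when the class was taken as cells with at least 1% of UMIs from C1qa, C1qb, C1qc and Apoe, and 295 with at least 200 UMIs, which left 378 of the 575 lower. Detection gains (195) became 97 when cells were thinned to 1000 UMIs and 338 at 4000 UMIs; losses (178) became 116 and 328, and 1263 without thinning. At Leiden resolution 0.5 macrophage-like cells made up 81.3% of day 7 and 68.4% of PBS cells, and osteoclast-like cells 0.686% and 7.21%; with the highest Scrublet scores removed (66 day 7 cells and 650 PBS cells), alpha-beta T-like cells were 4.19% of PBS cells. TMM, DESeq2 size factors and totals without mitochondrial, ribosomal and haemoglobin genes shifted the median log2 ratio of all genes by -0.10, -0.10 and -0.11.

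Of 301 named genes, 203 moved under at least 1 setting (663 values, beside 2338 that did not) and 9 reversed. Without cluster 7, Hba-a2 was at -0.52, Hbb-bt at -0.19 and H2-Eb1 at -0.30. Without cluster 14, Gata2 was at -0.59, Flt1 at -1.48, Trib3 at -0.15 and Nqo1 at -0.14. Without fibroblast-like cells, Des was at 0.32 and Timp3 at -1.48. Each of these settings leaves out cells that hold the gene. No list median reversed, and 11 lists moved under at least 1 setting.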
